A study of Mus musculus with 6 samples.

Results

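The Cyp4a genes encode cytochrome P450 enzymes of the endoplasmic reticulum that hydroxylate fatty acids at the far (omega) end of the chain. The 6 genes named Cyp4a10, Cyp4a12a, Cyp4a12b, Cyp4a14, Cyp4a31 and Cyp4a32 were taken by gene name from the 34745 genes of an RNA sequencing table of C57BL/6 mouse liver. Tumour libraries hold liver tumours of Hras12V transgenic mice, precancerous libraries hold precancerous liver of Hras12V transgenic mice, and normal libraries hold liver of wild-type mice. Every mouse was untreated, males were aged 9 months and females 15 months, and each of the 6 groups (3 tissues in 2 sexes) holds 1 library. Sex and age therefore cannot be told apart. The labels name neither the promoter that drives the oncogene, nor the number of mice in a library, nor whether tumour and precancerous tissue of a sex shared an animal.

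Omega hydroxylation is the first step by which liver turns excess fatty acids into dicarboxylic acids, which alcohol and aldehyde dehydrogenases complete and peroxisomes then shorten. The receptor PPARA switches on Cyp4a10 and Cyp4a14 when it is bound by fatty acids or fibrate drugs. Cyp4a12a is known in mice as a male-biased gene, under the control of androgens and growth hormone, whose product also turns arachidonic acid into the vasoactive lipid 20-HETE.

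The 6 genes lie within 322.6 kilobases of chromosome 4 of GRCm38 and fall into 3 sequence groups. Cyp4a12a lies at chr4:115299046-115332815 and Cyp4a12b at chr4:115411624-115439034, both on the plus strand. Cyp4a14 lies at chr4:115486200-115496142 on the minus strand. Cyp4a10 follows at chr4:115518264-115533649, Cyp4a31 at chr4:115563649-115579015 and Cyp4a32 at chr4:115600969-115621602, all on the plus strand. Each has 12 coding exons in the GENCODE M21 annotation, and no exonic base of the 6 is overlapped by opposite-strand exons (0.0%). The coding sequences of Cyp4a12a and Cyp4a12b were 98.5% identical, differing at 23 of 1524 bases. Cyp4a10 was 96.6% identical to Cyp4a31 and 97.2% to Cyp4a32. Cyp4a14 stood apart, at 75.0% to 75.9% identity to the other 5.

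**Figure D1:**
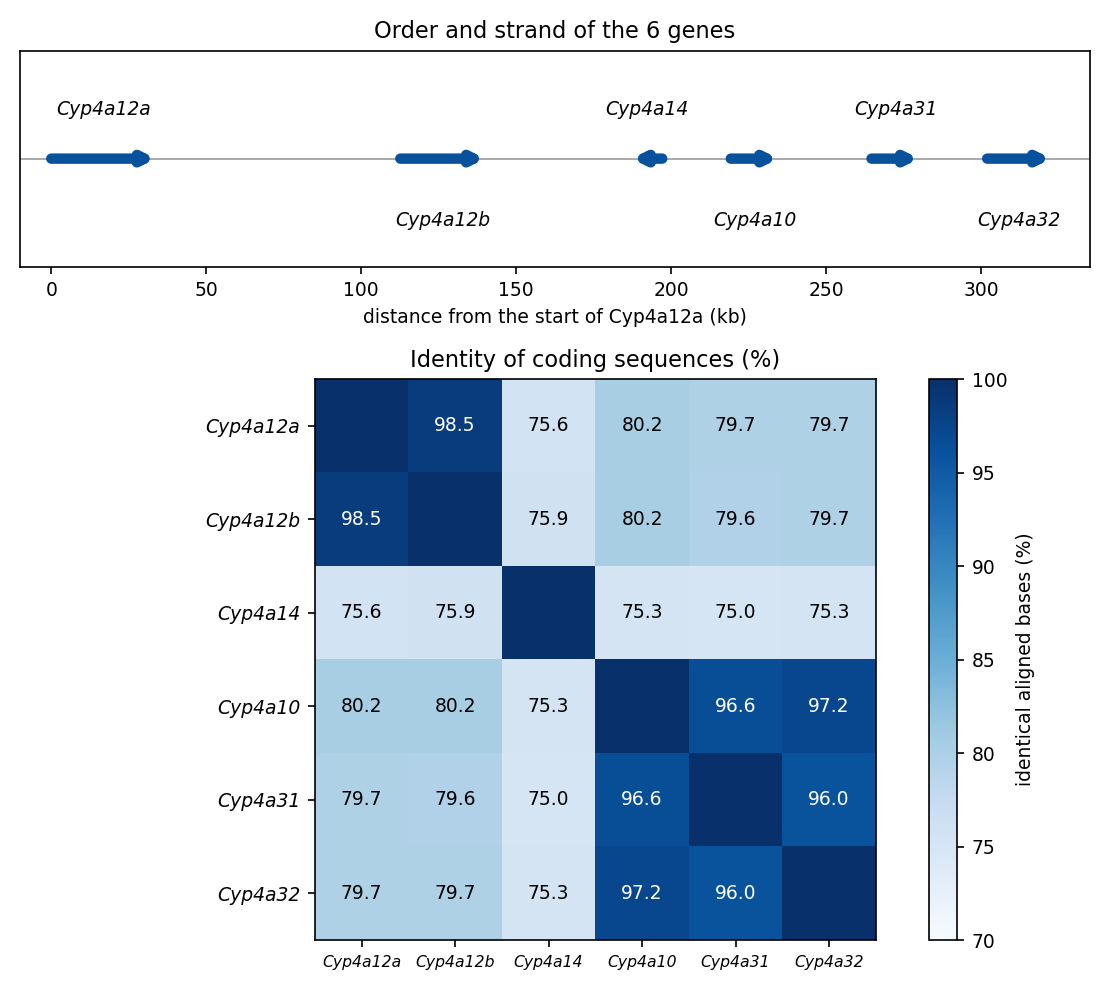
Upper panel: position and direction of transcription of the 6 genes, in kilobases from the start of Cyp4a12a. Lower panel: percentage of identical aligned coding bases for each pair of genes, where the Cyp4a12a and Cyp4a12b pair (98.5%) and the trio of Cyp4a10, Cyp4a31 and Cyp4a32 (96.0% to 97.2%) form dark blocks and Cyp4a14 shares at most 75.9% with any other.

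The coding stretch of 60 bases around the cysteine that holds the haem iron, the part of a P450 enzyme that carries out catalysis, shows the 3 groups. It was found by the P450 cysteine signature in Cyp4a10 and read in the other 5 by alignment. Capitals mark the 11 positions where the 6 genes differ. Bases run 5′ to 3′ along the gene, and the stretch spans an exon junction, so that its outer coordinates (chr4:115529490-115532561 in Cyp4a10, for example) include an intron.
Cyp4a12a: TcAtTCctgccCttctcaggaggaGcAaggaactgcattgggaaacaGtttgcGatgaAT
Cyp4a12b: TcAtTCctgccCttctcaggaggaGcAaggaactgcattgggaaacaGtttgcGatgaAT
Cyp4a14: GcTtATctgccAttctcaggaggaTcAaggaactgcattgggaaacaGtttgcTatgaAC
Cyp4a10: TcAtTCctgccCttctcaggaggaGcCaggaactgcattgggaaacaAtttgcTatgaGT
Cyp4a31: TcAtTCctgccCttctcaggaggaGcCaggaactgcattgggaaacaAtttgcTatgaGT
Cyp4a32: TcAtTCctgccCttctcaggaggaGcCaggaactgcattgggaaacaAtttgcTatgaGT
Here Cyp4a10, Cyp4a31 and Cyp4a32 were the same base for base. Cyp4a12a and Cyp4a12b were also the same, at 4 differences from Cyp4a10, and Cyp4a14 had 10.

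A read can be placed in 1 copy rather than another only where the copies differ, so the 60 coding bases of 1 exon with the most differences within each group are shown next. For the Cyp4a12 genes these are chr4:115326628-115326687 and chr4:115432881-115432940, plus strand, with the 4 differing bases in capitals.
Cyp4a12a: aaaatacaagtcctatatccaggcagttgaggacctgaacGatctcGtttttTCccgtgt
Cyp4a12b: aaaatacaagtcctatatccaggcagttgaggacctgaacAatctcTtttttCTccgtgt
For the Cyp4a10 group they are chr4:115519640-115519699, chr4:115565020-115565079 and chr4:115602270-115602329, plus strand, with capitals at the 9 positions where any of the 3 differ.
Cyp4a10: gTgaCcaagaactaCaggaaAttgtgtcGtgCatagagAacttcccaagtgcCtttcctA
Cyp4a31: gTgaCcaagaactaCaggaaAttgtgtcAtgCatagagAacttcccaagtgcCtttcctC
Cyp4a32: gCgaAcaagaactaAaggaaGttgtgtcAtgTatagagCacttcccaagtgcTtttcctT
Cyp4a31 differed from Cyp4a10 at 2 of these bases and Cyp4a32 at 9.

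The share of sequence that copies hold in common depends on the length read. Of all windows of 50 bases in the annotated transcripts, 48.9% of those of Cyp4a12a occurred unchanged in Cyp4a12b, and 43.8% of those of Cyp4a32, 29.8% of those of Cyp4a10 and 20.6% of those of Cyp4a31 occurred in another gene. For Cyp4a14 the share was 0.2%. With windows of 100 bases the shares were 35.8% for Cyp4a12a, 18.2% for Cyp4a32, 12.2% for Cyp4a10, 7.3% for Cyp4a31 and 0.0% for Cyp4a14. Values that set Cyp4a12a against Cyp4a12b, or Cyp4a10, Cyp4a31 and Cyp4a32 against each other, are therefore uncertain, and the sums over each group are given beside them. For Cyp4a31 the length implied by the deposited values was 4436 bases, 1.77 times its exonic length in the annotation, and for Cyp4a10 it was 2860 bases, 1.36 times, so the FPKM of both against other genes is uncertain as well.

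The libraries summed to between 5996585 and 7347064 counts in males and between 15047022 and 18434508 in females. The floor of 3 counts lay between 0.163 and 0.5 CPM (counts scaled to the library total). Xist, Ddx3y and Eif2s3y matched the labelled sex in all 6 libraries. The hepatocyte marker list held 14 genes, all of them above the filter, and summed to between 46312 and 85265 FPKM (fragment counts divided by gene length and library total). The male and female libraries also differ as sets. The mitochondrial gene mt-Co1 had 0 counts in each male library and between 266126 and 586467 in each female library, and its part in the differences between the sexes was not tested.

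Cyp4a12a and Cyp4a12b were genes of the male libraries. In males, Cyp4a12a stood at 139 FPKM in normal liver, 26.2 FPKM in precancerous liver and 21.2 FPKM in tumour, with 2021, 438 and 377 counts. In females it stood at 0.0935, 0.0823 and 0.269 FPKM in the same order, with 4, 3 and 12 counts, so every male library lay above every female one. Cyp4a12b had 43.4, 13.3 and 1.76 FPKM (623, 219 and 31 counts) in males, in the same order of tissues, and 0, 0.0832 and 0.0227 FPKM (0, 3 and 1 counts) in females. The female values of Cyp4a12b are at or under the floor and carry no comparison between tissues.

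Within males, the precancerous and tumour libraries lay far below normal liver for both genes. In whole tissue, fewer cells that express a gene and less RNA per cell cannot be told apart. Cyp4a12a was 5.30-fold lower in precancerous than in normal liver, with a 95% exact counting interval of 4.78 to 5.89, and 1.24-fold lower in tumour than in precancerous liver (interval 1.08 to 1.43). Cyp4a12b was 3.27-fold lower in precancerous than in normal liver (interval 2.80 to 3.83) and a further 7.53-fold lower in tumour than in precancerous liver (interval 5.15 to 11.4). These intervals compare single libraries, cover counting error only and say nothing of the spread between mice. The ratio of Cyp4a12a to Cyp4a12b was 3.21 in male normal liver, 1.98 in male precancerous liver and 12.03 in male tumour. Since the copies share sequence, the sum is the firmer value, and over the male libraries it was 183 FPKM in normal, 39.5 FPKM in precancerous and 22.9 FPKM in tumour tissue, against 0.0935, 0.166 and 0.291 FPKM in females.

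Cyp4a14 and Cyp4a10 were the leading genes of the 6 in normal female liver. Cyp4a14 stood at 412 FPKM in female normal liver, 82.1 FPKM in female precancerous liver and 2.50 FPKM in female tumour. In males it stood at 10.2, 14.4 and 3.51 FPKM in the same order. The female normal and precancerous libraries were thus above all 3 male ones, while the female tumour library was the lowest of the 6. Cyp4a10 had the same shape, at 251, 109 and 3.11 FPKM in female normal, precancerous and tumour tissue and 30.03, 34.6 and 12.3 FPKM in male tissue.

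The female tumour library had a 165-fold lower Cyp4a14 CPM than female normal liver (interval 139 to 197). The same fold for Cyp4a10 was 80.7-fold lower (interval 69.2 to 94.7). In males the tumour library was 2.91-fold lower than normal liver for Cyp4a14 and 2.44-fold lower for Cyp4a10. From normal to precancerous tissue the sexes differed in sign. Cyp4a14 was 5.01-fold lower and Cyp4a10 2.29-fold lower in female precancerous than in female normal liver, while in males the precancerous library was 1.40-fold and 1.15-fold higher. Whether the tissue difference depends on sex has no test here, because the 6 libraries leave no spread within a group.

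Cyp4a31 was the only gene of the 6 whose tumour library was the highest in both sexes. It had 1.09 and 1.05 FPKM in male normal and precancerous liver and 8.65 FPKM in male tumour (29, 32 and 282 counts). In females it had 3.74, 4.07 and 5.99 FPKM (293, 272 and 490 counts). The tumour library was the highest of its sex in both, by 8.27-fold over precancerous liver in males (interval 5.72 to 12.3) and by 1.47-fold in females (interval 1.27 to 1.71).

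Cyp4a32 was low in tumours of both sexes. In males it had 8.73 FPKM in normal, 6.80 in precancerous and 4.08 in tumour tissue (96, 86 and 55 counts), and in females 13.5, 15.9 and 3.82 FPKM (436, 440 and 129 counts). Both tumour libraries lay below all 4 other libraries, and they differed from each other by less than the counting error (1.07-fold, interval 0.766 to 1.48). Tumour was 1.67-fold lower than precancerous liver in males (interval 1.17 to 2.38) and 4.18-fold lower in females (interval 3.43 to 5.13). The near-identical Cyp4a10, Cyp4a31 and Cyp4a32 summed to 39.8, 42.5 and 25.1 FPKM over the 3 tissues in males and to 268, 129 and 12.9 FPKM in females, a sum that Cyp4a10 led in every library but the female tumour.

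**Figure D2:**
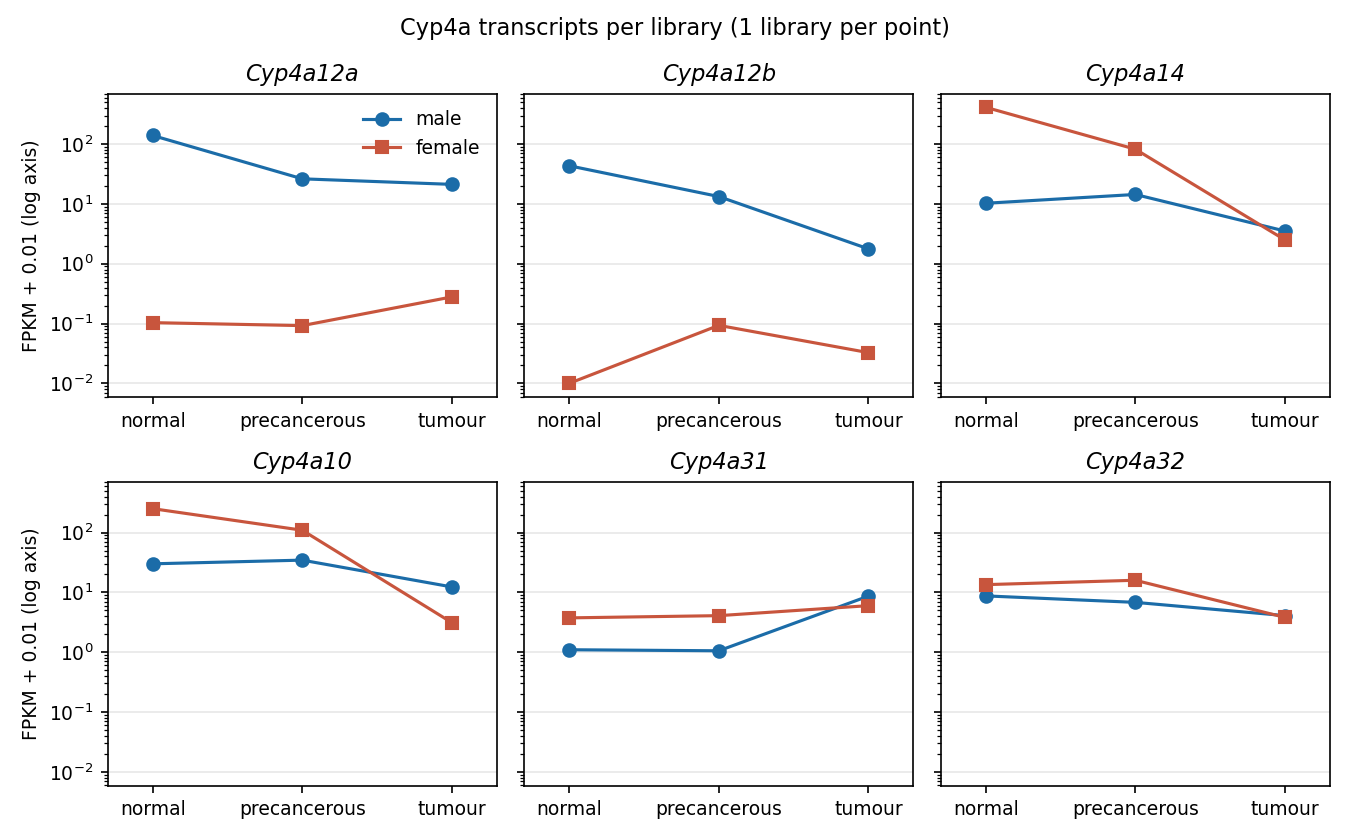
FPKM plus 0.01 of each gene (vertical axis, log scale) in normal, precancerous and tumour liver (horizontal axis), with 1 library per point, circles for males and squares for females. Cyp4a12a and Cyp4a12b are separated by sex at every tissue, Cyp4a14 and Cyp4a10 drop in the female tumour library to 2.50 and 3.11 FPKM, and Cyp4a31 is highest in the tumour library of each sex.

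Summed over the 6 genes, male expression was 233 FPKM in normal, 96.3 in precancerous and 51.5 in tumour tissue, and female expression was 680, 212 and 15.7 FPKM. The make-up of the sum changed with it. Cyp4a12a led in male normal liver with 59.8% of the sum, Cyp4a10 in male precancerous liver with 35.9%, and Cyp4a12a in male tumour with 41.1%. In females Cyp4a14 led in normal liver with 60.5%, Cyp4a10 in precancerous liver with 51.7% and Cyp4a31 in tumour with 38.2%. The Cyp4a12 genes made 78.5%, 41.01% and 44.5% of the sum in males and at most 1.86% in females.

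**Figure D3:**
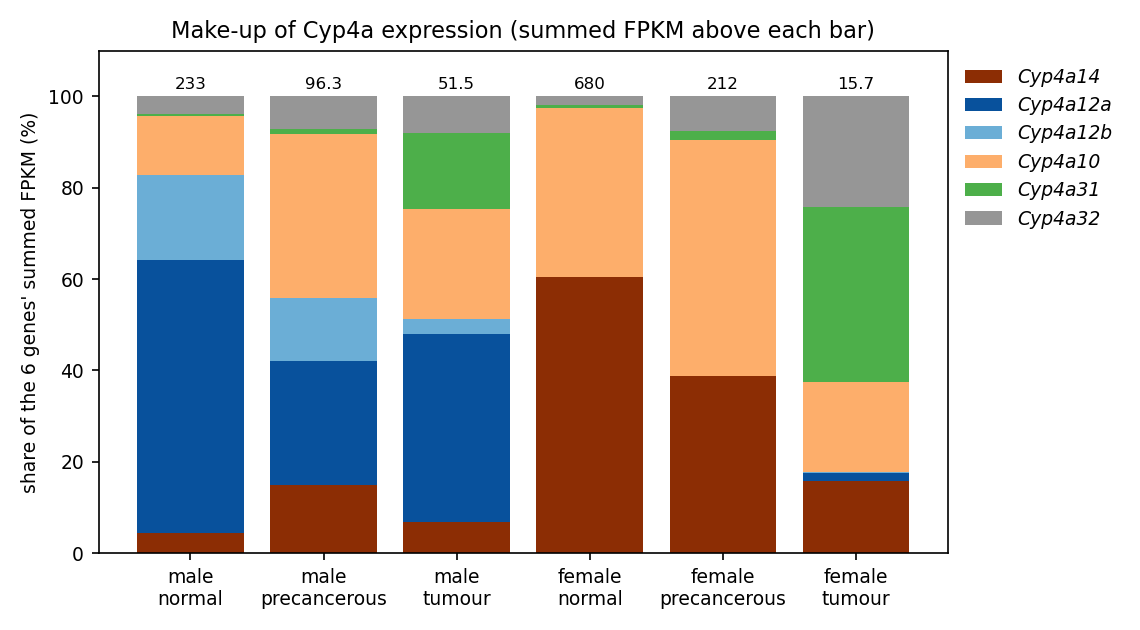
Share of the summed FPKM of the 6 genes (vertical axis, percent) taken by each gene, with 1 bar per library and the sum in FPKM above each bar. Blue (Cyp4a12a and Cyp4a12b) takes 78.5% of the bar in male normal liver and at most 1.86% in females, and green (Cyp4a31) reaches 38.2% in female tumour, where the sum is only 15.7 FPKM.

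Ratios between neighbours showed the same shifts. Cyp4a31 stood at 0.0363, 0.0303 and 0.702 times the FPKM of Cyp4a10 in males, from normal to tumour tissue. In females the ratio was 0.0149, 0.0372 and 1.93. Cyp4a10 thus exceeded Cyp4a31 in 5 of the 6 libraries, and Cyp4a31 exceeded Cyp4a10 in the female tumour library. The ratio of Cyp4a14 to Cyp4a10 was 0.341, 0.415 and 0.285 in males and 1.64, 0.751 and 0.803 in females, so Cyp4a14 exceeded Cyp4a10 in female normal liver alone. The size of these ratios, and with it where they cross 1, carries the doubt on the length of Cyp4a10. The ratio of Cyp4a31 to Cyp4a10 also carries the larger doubt on the length of Cyp4a31 (1.77 times its exonic length, against 1.36 times). In the female tumour library the counting interval of the ratio of Cyp4a14 to Cyp4a10, 0.633 to 1.02, includes equality.

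Tumour was compared with precancerous liver over both sexes, with sex as a term of the model, to describe how the carcinoma differs from precancerous liver. Of the 6 genes, 2 fell and none rose (edgeR quasi-likelihood test, Benjamini-Hochberg adjusted p under 0.05), where 25.9% of all 11435 tested genes were called, 12.1% of them lower and 13.8% higher as shares of all tested. Cyp4a32 fell by 1.53 on the log2 scale (standard error SE 0.31, adjusted p = 0.023), and was lower in 2 of 2 sexes. Cyp4a12b fell by 2.97 (SE 0.60, adjusted p = 0.0242), a value that rests on males because female counts were at most 3. The others did not pass, with log2 fold changes of -3.10 for Cyp4a14, -2.73 for Cyp4a10, -0.01 for Cyp4a12a and 1.66 for Cyp4a31 (edgeR adjusted p = 0.161, 0.165, 0.997 and 0.111). The median of the 6 was -2.13, against 0.03 over all genes tested.

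The 2 calls differ in how much they depend on the model. Under 7 other scalings, tests and filters Cyp4a32 stayed called, while without the sex term its adjusted p was 0.184 in edgeR, the highest of a range that began at 0.00219. Cyp4a12b was not called with DESeq2 (adjusted p = 0.38, in a range of 0.00511 to 0.981) or with limma at pseudocounts of 1 and 0.1 (-1.23 and -1.71, adjusted p = 0.399 and 0.337), nor were the summed counts of Cyp4a12a and Cyp4a12b (log2 fold change -0.45, adjusted p = 0.743 in edgeR). The Cyp4a10, Cyp4a31 and Cyp4a32 counts summed gave -1.50 (edgeR adjusted p = 0.269). DESeq2 called Cyp4a31 higher in tumour, at 1.87 (adjusted p = 0.0191, in a range of 0.0038 to 0.466). Neither Cyp4a32 nor Cyp4a12b was called without the male precancerous or the female precancerous library. Without the male tumour library the log2 fold changes were -5.57 for Cyp4a10, -5.92 for Cyp4a14, -2.00 for Cyp4a32, 0.32 for Cyp4a12b and 3.10 for Cyp4a12a. Tumour was then the female library alone, where Cyp4a12a had 12 counts, against 3 in female precancerous liver. The counting interval of that pair, 0.881-fold to 18.0-fold, includes equality. Cyp4a32 lost its call without the female tumour library as well (log2 fold change -0.97). Without the male or the female normal library 3 were called, Cyp4a14 being added, and without the female tumour library Cyp4a31 was called higher at 2.93.

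Precancerous liver was compared with normal liver to describe how this transgenic tissue differs from wild-type liver. Tumour and precancerous libraries of a sex come from mice of the same age, so the data give no order in time. None of the 6 genes was called by edgeR, DESeq2 or limma, and 29 genes in all (0.254%) were called by edgeR. At an unadjusted p under 0.05, edgeR picked 2 members, Cyp4a12b at a log2 fold change of -1.51 and Cyp4a12a at -2.09. The same threshold picked 1807 of all 11435 genes tested. Cyp4a14 stood at -1.53, Cyp4a10 at -0.79, Cyp4a31 at 0.05 and Cyp4a32 at 0.00126, with adjusted p between 0.248 and 0.998 over the 6. Without either tumour library Cyp4a12a was called lower (log2 fold changes -2.27 and -2.26, adjusted p = 0.038 and 0.0379 in edgeR, in a range of 0.0379 to 1). Within single sexes, 2 of 6 genes were at least 2-fold lower in precancerous than in normal liver on the log2(FPKM + 1) scale, Cyp4a12a and Cyp4a12b in males (1.77% of all genes) and Cyp4a14 and Cyp4a10 in females (1.25%). None was 2-fold higher in either sex (1.92% of all genes in males and 1.23% in females).

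Tumour was then compared with normal liver. Again 2 of the 6 fell and none rose, where 33.4% of all genes tested were called (16.1% lower and 17.3% higher). Cyp4a12b fell by 4.49 on the log2 scale (SE 0.59, edgeR adjusted p = 0.00573) and Cyp4a32 fell by 1.53 (SE 0.31, edgeR adjusted p = 0.018). Cyp4a14 stood at -4.63 (SE 1.58), Cyp4a10 at -3.52 (SE 1.33), Cyp4a12a at -2.10 (SE 0.74) and Cyp4a31 at 1.71 (SE 0.62), with edgeR adjusted p between 0.0778 and 0.0998. Leaving out 1 library, Cyp4a14 ran from -6.88 to -2.41 and Cyp4a10 from -6.07 to -1.74, and without the male tumour library Cyp4a10 was called (edgeR adjusted p = 0.00324, in a range of 0.00324 to 0.248). The median of the 6 was -2.81, against 0.00051 over all genes tested. The 3 tissue comparisons share libraries and are not independent of each other.

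The call of Cyp4a12b again rested on the males: it was 24.6-fold lower in male tumour than in male normal liver (interval 17.2 to 36.6). It ended with DESeq2 (adjusted p = 0.277, in a range of 0.00101 to 0.712), and the summed Cyp4a12 counts gave -2.20 (edgeR adjusted p = 0.108). Without the male normal library its log2 fold change was 1.86 and without the male tumour library -1.25. The call also ended with limma at pseudocounts of 1 and 0.1 (-1.99 and -2.13, adjusted p = 0.185 and 0.228). The call of Cyp4a32 ended without the male normal, the female normal or the female tumour library (log2 fold changes -1.54, -1.54 and -0.97, adjusted p = 0.0677, 0.0911 and 0.0643 in edgeR, in a range of 0.00155 to 0.143). DESeq2 added Cyp4a14, lower at -4.48 (adjusted p = 0.0163, in a range of 0.0123 to 0.167), and Cyp4a31, higher at 1.93 (adjusted p = 0.0125, in a range of 0.00177 to 0.374). The number called over the 6 fits that each left out 1 library ran from 1, without the male normal library, to 4, without the male tumour library.

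Counted within a sex, 4 of 6 genes were at least 2-fold lower in male tumour than in male normal liver and Cyp4a31 was higher, where 5.97% of all genes were lower and 8.38% higher. In females 3 were lower and none higher, where 6.97% were lower and 7.42% higher. For tumour against precancerous liver the counts were 3 lower and 1 higher in males (4.7% and 6.64% of all genes) and 3 lower and none higher in females (4.85% and 5.94%).

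**Figure D4:**
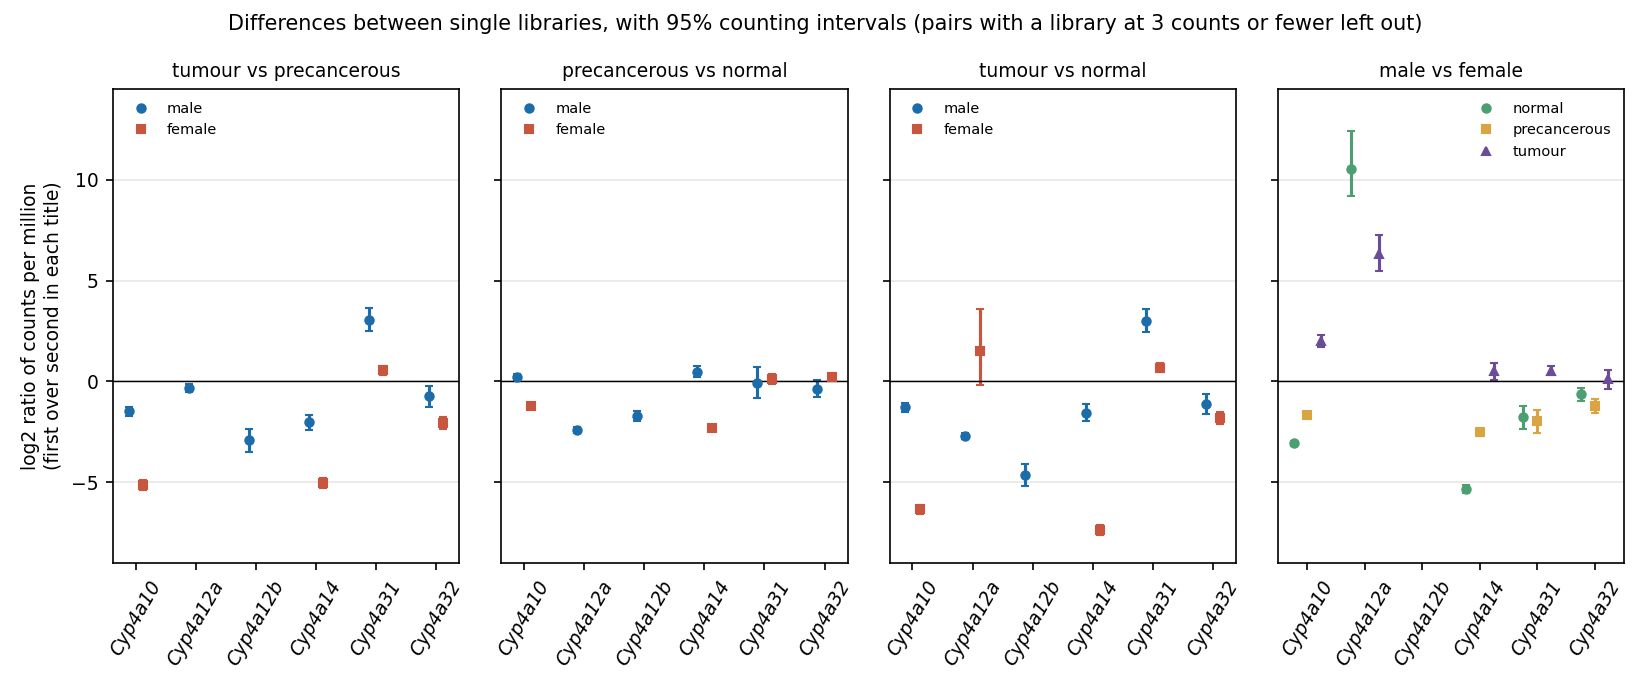
Log2 ratio of CPM between single libraries (vertical axis) for each gene (horizontal axis), with 95% exact counting intervals as bars, for tumour over precancerous, precancerous over normal, tumour over normal, and male over female. Pairs with a library at 3 counts or fewer are left out. The female squares of Cyp4a10 and Cyp4a14 reach -6.33 and -7.37 for tumour over normal, and in the male over female panel Cyp4a10 runs from -3.06 in normal liver to 1.99 in tumour.

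Males were compared with females over the 3 tissues, a comparison in which sex, age and the library sets cannot be told apart. Cyp4a12a and Cyp4a12b were higher in males (edgeR log2 fold changes 8.23, SE 0.70, adjusted p = 0.00312, and 8.85, SE 0.60, adjusted p = 0.00172), where 37.3% of all genes tested were called (19.1% higher and 18.2% lower). They passed the expression filter through the male libraries alone, so that a difference was built into their being tested. Since Cyp4a12b had 0 counts in female normal liver, its fitted value depends on the model's prior count. Against the floor of 3 counts in that library, male normal liver was at least 611-fold higher. Cyp4a12a was 1488-fold higher in male than in female normal liver (interval 580 to 5465), and 78.8-fold higher in male than in female tumour (interval 44.6 to 154).

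The other 4 genes were not called between the sexes over all tissues, and the pairs of Cyp4a14, Cyp4a10 and Cyp4a31 show a change of order in the tumour. Cyp4a14 was 40.2-fold lower in male than in female normal liver (interval 34.7 to 46.9) and 5.72-fold lower in male than in female precancerous liver, but 1.41-fold higher in male than in female tumour (interval 1.04 to 1.88). Cyp4a10 was 8.36-fold and 3.16-fold lower in males for the same tissues and 3.96-fold higher in male than in female tumour (interval 3.25 to 4.85). Cyp4a31 was 3.43-fold and 3.89-fold lower in males and 1.44-fold higher in male than in female tumour. Cyp4a32 was 1.54-fold and 2.34-fold lower in males while its tumour libraries differed by less than the counting error. Without the male or the female tumour library, edgeR called all 6 members, the Cyp4a12 genes higher and the other 4 lower in males. In the same order, these fits called 3732 and 3656 of all 11435 genes tested. Each leaves out a library of the tumour pair, in which Cyp4a10, Cyp4a14 and Cyp4a31 had the opposite order. The sex difference then rests on the normal and precancerous pairs, so these calls do not describe the tumour. With all libraries the edgeR log2 fold changes of the 4 lay between -2.62 and -0.72, with adjusted p between 0.0697 and 0.408. By single pair, 2 genes were at least 2-fold higher and 3 lower in male than in female normal liver (7.73% and 3.27% of all genes), 2 higher and 4 lower in precancerous liver (6.88% and 2.07%), and 3 higher and none lower in tumour (6.72% and 1.51%).

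Other genes of the same pathway were then read from lists. Their counts are read against all genes tested. In tumour against normal liver 33.4% were called, 16.1% lower and 17.3% higher. In tumour against precancerous liver 25.9% were called, 12.1% lower and 13.8% higher. Between the sexes 37.3% were called, 18.2% lower and 19.1% higher in males, where sex, age and library set cannot be told apart. Of 14 other Cyp4 genes 7 were tested, and in tumour against normal liver 4 fell and 1 rose (16.1% and 17.3% of all genes tested), with a median log2 fold change of -0.96. Cyp4f14 and Cyp4f15, P450 enzymes that hydroxylate leukotrienes and other fatty acids, fell, at log2 fold changes of -3.08 (SE 0.37, edgeR adjusted p = 0.00438) and -2.14 (SE 0.17, edgeR adjusted p = 0.0019). Cyp4f14 stood at 92.4, 112 and 17.8 FPKM over normal, precancerous and tumour tissue in males and at 92.0, 89.6 and 6.76 FPKM in females. It was not called between the sexes (log2 fold change 0.47, edgeR adjusted p = 0.232). Cyp4b1 and Cyp4f13 fell (-0.97 and -0.77), and Cyp4f16 rose (2.56). Against precancerous liver the same list gave 4 lower and 1 higher (median -0.70), and precancerous against normal liver gave no call (median -0.06). Cyp4a29 and Cyp4a30b, further family members in the table, had 0 counts in every library.

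P450 enzymes take electrons from Por and, in part, from cytochrome b5. Of 4 electron donor genes 2 fell in tumour against normal liver (median -0.70, with 16.1% of all genes tested lower), Cyb5b at a log2 fold change of -0.996 and Cyb5a at -0.71. In tumour against precancerous liver 1 fell (Cyb5a, at -0.77, with a list median of -0.59), and none was called between precancerous and normal liver (median 0.19). Por stood at 35.9, 83.3 and 36.1 FPKM over normal, precancerous and tumour tissue in males and at 156, 164 and 65.9 FPKM in females. It was lower in males (log2 fold change -1.41, SE 0.29, edgeR adjusted p = 0.0198), as the only one of the 4 (median -0.26).

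The next steps of omega oxidation and the peroxisomal steps were mostly lower in tumours. Of 7 genes for alcohol and aldehyde oxidation 4 fell and none rose in tumour against normal liver (median -0.84). The alcohol dehydrogenase Adh4 fell by 3.23 (SE 0.17, edgeR adjusted p = 0.00121), the retinal dehydrogenase Aldh1a1 stood at -2.24 (SE 0.21), the formaldehyde-oxidising Adh5 at -0.84 and the aldehyde dehydrogenase Aldh9a1 at -0.56, all 3 past the threshold. Aldh3a2, the fatty aldehyde dehydrogenase, did not pass, at -1.04 (edgeR adjusted p = 0.0966). Of 20 tested peroxisomal genes 15 fell and none rose (median -1.11), among them Crot, which exports shortened fatty acids as carnitine esters (-2.16), and the bifunctional enzyme Ehhadh (-1.70). In tumour against precancerous liver, 3 of the 7 fell (median -0.71) and 8 of the 20 fell (median -0.74), and between precancerous and normal liver neither list held a call (medians -0.34 and -0.42). Between the sexes 3 of the 7 were higher and 1 lower in males (median 0.11), and of the 20, 1 was higher and 3 lower (median -0.30).

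**Figure D5:**
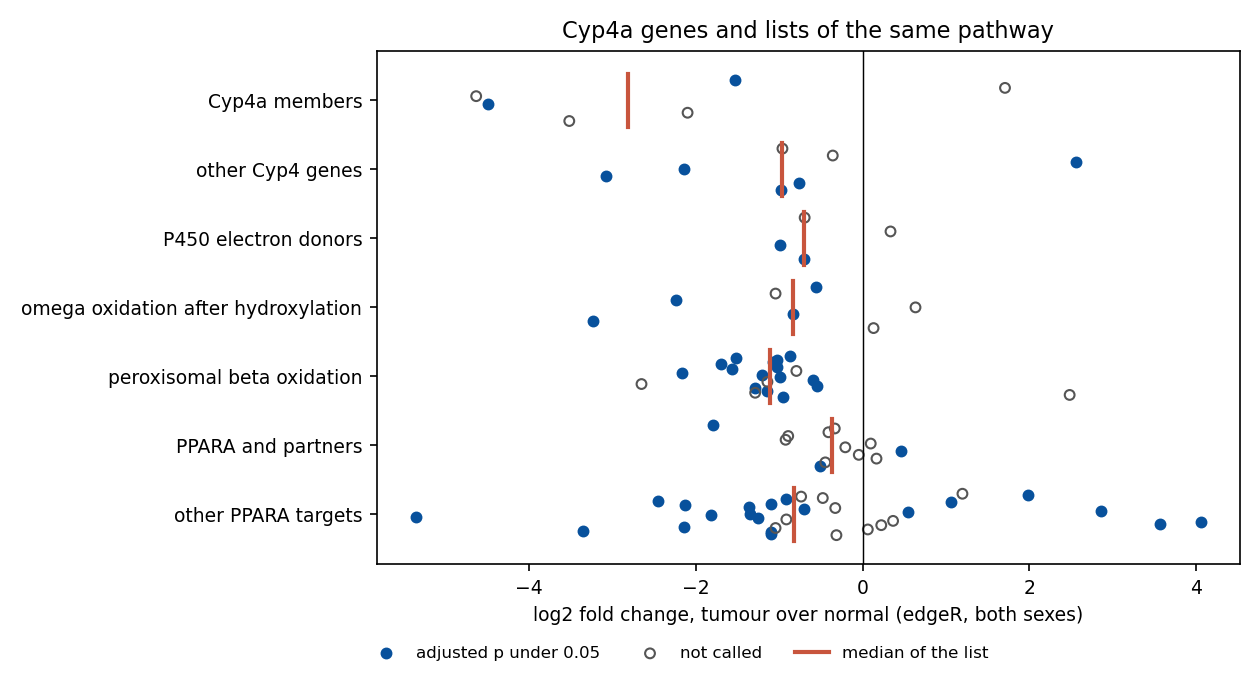
Log2 fold change of tumour over normal liver across both sexes (horizontal axis) for each tested gene of the 6 Cyp4a genes and 6 related lists (rows). Filled points passed edgeR's adjusted p under 0.05, open points did not, and red bars are list medians, which run from -2.81 for the Cyp4a genes to -0.37 for PPARA and its partners.

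Ppara itself stood at 16.2, 22.8 and 19.7 FPKM over normal, precancerous and tumour tissue in males and at 18.5, 24.7 and 18.2 FPKM in females, and was called in no comparison of tissues. Of 12 genes for PPARA and its partners, 2 fell and 1 rose in tumour against normal liver (median -0.37), a share not above the 33.4% of all genes tested. The retinoid receptor gene Rxrg stood at -1.79 and the liver transcription factor gene Creb3l3 at -0.51. In tumour against precancerous liver 1 fell (Rxrg, at -1.44, with a list median of -0.28), and none was called between precancerous and normal liver (median -0.08). Between the sexes 5 were lower in males (median -0.43).

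Of 30 other PPARA targets 14 fell and 6 rose in tumour against normal liver (median -0.83), where 16.1% of all genes tested fell and 17.3% rose, so the number that rose is near the background. Acot1, a cytosolic thioesterase that frees fatty acids from coenzyme A, fell by 3.35 (SE 0.46, edgeR adjusted p = 0.00621), and Retsat, a retinol saturase, fell by 2.45. Cyp8b1, the sterol hydroxylase that makes cholic acid, fell by 5.36 (SE 0.30, edgeR adjusted p = 0.00121). Fgf21, a secreted fasting hormone, rose by 2.85 (SE 0.43, edgeR adjusted p = 0.00805). In tumour against precancerous liver 9 fell and 5 rose (median -0.36). Between precancerous and normal liver 1 fell, which was Cyp8b1 (log2 fold change -3.22, edgeR adjusted p = 0.0377, with a list median of -0.45). Between the sexes 13 were lower and 1 higher in males (median -0.55), beside 18.2% and 19.1% of all genes tested. The lists share genes of the same hormone and nutrient responses, and were chosen with earlier results of these data known.

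Growth hormone and androgens are known to set sex-biased expression in liver. Of 17 genes of growth hormone and androgen signalling 9 fell and none rose in tumour against normal liver (median -0.80), beside 16.1% and 17.3% of all genes tested. The growth hormone receptor gene Ghr fell by 2.37 and its target Igf1 fell by 2.87. In tumour against precancerous liver 9 fell (median -1.52), none was called between precancerous and normal liver (median 0.37), and 6 were lower in males than in females (median -0.27).

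The Cyp4a12 genes were set beside other male-biased liver genes, and Cyp4a14 beside female-biased ones. Of 14 tested male-biased genes 6 fell in tumour against normal liver (median -1.66) and 6 in tumour against precancerous liver (median -1.82). In precancerous against normal liver 1 fell (median -0.56), the fatty acid elongase gene Elovl3, at a log2 fold change of -5.55 (SE 0.41, edgeR adjusted p = 0.0311). Elovl3 stood at 357, 6.02 and 0.182 FPKM over male normal, precancerous and tumour tissue. The steroid dehydrogenase gene Hsd3b5 stood at 171, 52.1 and 1.32 FPKM in the same male libraries. Of the 14, 10 were higher in males (median 3.02), a direction fixed by the choice of the list.

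Of 17 female-biased genes 5 fell and 1 rose in tumour against normal liver (median -0.81), a number called that is near the 33.4% of all genes tested. Of the 17, 5 fell and 1 rose against precancerous liver (median -1.84), and none was called in precancerous against normal liver (median 1.12). A1bg, a plasma protein gene, stood at 366, 334 and 0.625 FPKM over normal, precancerous and tumour tissue in females, and at 0, 0.637 and 0 FPKM in males. Between the sexes 6 of the 17 were lower in males (median -3.65), again by the choice of the list.

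Genes whose profile over the 6 libraries lay closest to a member were found by the root mean square difference of log2(FPKM + 1), each gene centred on its own mean, among 11429 other tested genes. For Cyp4a14 the closest were the sulfotransferase genes Sult2a7 (0.57) and Sult2a3 (1.13) and the thioesterase gene Acot1 (1.16). For Cyp4a10 they were Cyp2c38, another P450 gene (0.66), the long noncoding RNA Gm6135 (0.76) and Mfsd2a, a transporter of lysophospholipids (0.81). For Cyp4a32 Wfdc1 was among the closest (0.15). For Cyp4a31 they were Rcan2 (0.14), a regulator of calcineurin, the class I histocompatibility gene H2-Q1 (0.17) and Timp2 (0.25), an inhibitor of metalloproteinases. Small values for Cyp4a31 and Cyp4a32 go with their smaller range over the libraries.

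The neighbours of the Cyp4a12 genes were pseudogenes and transcripts annotated opposite other genes. For Cyp4a12a they were the major urinary protein pseudogene Mup-ps22 (0.33), RP23-325D10.4 (0.55) and Gm16537 (0.58), and for Cyp4a12b Gm15622 (0.34), Mup-ps17 (0.37) and AW495222 (0.43). Of these, RP23-325D10.4, Gm16537, Gm15622 and AW495222 have 65.9%, 54.7%, 12.8% and 23.4% of their exonic bases under exons on the opposite strand, and their values are uncertain since the sources used here do not say how the counting treated strand. Within the family the closest pairs were Cyp4a10 with Cyp4a14 (0.80) and Cyp4a12a with Cyp4a12b (1.06), while Cyp4a12a and Cyp4a14 were the farthest apart (4.45). These values describe 6 libraries, and other genes at the same depth share their library and scaling.

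Markers of other cell types also differed between tissues, and their part in the Cyp4a differences was not tested. The 14 hepatocyte markers summed to 85265 and 46312 FPKM in male tumour and normal liver and to 83486 and 64589 FPKM in female tumour and normal liver. Of the 14, 2 rose and 6 fell in tumour against normal liver (edgeR median 0.18). The albumin gene Alb alone held 5.74% of all counts in male normal liver and 13.7% in male tumour. In female normal liver and female tumour it held 9.07% and 14.0%, so these sums weigh Alb heavily. The summed Cyp4a expression was lower in tumour in both sexes. The 9 cholangiocyte markers summed to 124 and 14.3 FPKM in male tumour and normal liver and to 142 and 16.0 FPKM in female tumour and normal liver. Of these sums Spp1 alone made 115 FPKM in male tumour and 129 FPKM in female tumour. Of the 9, 5 (Krt7, Krt19, Cldn7, Cftr and Muc1) were under the filter, and Spp1, Sox9 and Epcam rose in tumour against normal liver. The 10 Kupffer cell and macrophage markers summed to 166 and 247 FPKM in male and 253 and 350 FPKM in female tumour and normal liver, and to 359 and 502 FPKM in male and female precancerous liver. Of them 8 fell in tumour against precancerous liver (edgeR median -1.27) and 5 in tumour against normal liver (edgeR median -0.56). The 10 endothelial markers summed to between 53.7 and 87.7 FPKM over the 6 libraries. The 12 stellate cell and fibroblast markers summed to between 79.2 and 164 FPKM over the 6 libraries, while 8 rose and 2 fell in tumour against normal liver (edgeR median 1.19) and 6 rose and 2 fell against precancerous liver (edgeR median 1.10). The sums lay, over the 6 libraries, for the 10 T, NK and B cell markers between 2.16 and 16.0 FPKM, for the 5 red blood cell genes between 68.7 and 140 FPKM, and for the 7 adipocyte markers between 0.752 and 6.92 FPKM. Fabp4, the only adipocyte marker above the filter, made 6.90 FPKM of the highest sum and rose in tumour against normal liver (edgeR log2 fold change 2.73). Kidney, the other organ known for Cyp4a12 expression, was checked as well: 6 of 10 kidney tubule markers (Slc22a6, Umod, Kap, Slc12a1, Nphs1 and Aqp2) were listed at 0 in every library, and the sum was 1.18 FPKM in male normal liver, where the Cyp4a12 genes were highest, and 9.45 FPKM in female tumour. Miox, the only kidney marker above the filter, made 9.44 FPKM of the female tumour sum and rose in tumour against normal liver (edgeR log2 fold change 7.89).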

How the data were processed

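Messenger RNA of 6 liver libraries was sequenced from a stranded kit, per the labels' protocols. The authors deposited a raw count and an FPKM value for each gene and library. Per the submitters' processing notes, which give no roles, TopHat2 2.0.9 and Cuffdiff were used with the builds GRCm38 and mm10. The strand setting used in counting was not given in the sources used here. For genes with at least 50 counts, the deposited FPKM equalled the count over a gene length and the library total, with a ratio between 0.999984 and 1.00002.

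The 11435 genes that reached an FPKM of 1 in 2 or more libraries were tested with edgeR 4.0.16 (R 4.3.3), TMM scaling and an additive model of tissue and sex, with two-sided p-values adjusted by Benjamini-Hochberg and called under 0.05. With 1 library per group, a p-value weighs the mean difference against the residual of the additive model. That residual is how far the tissue differences of the sexes depart from each other, with its spread shared over genes. A small p-value is therefore no sign that a tissue difference depends on sex. A model with a sex-by-tissue interaction leaves no residual. Sex, which pairs a tissue's libraries by label, is the block of the model. The standard error is the log2 fold change over the root of the F statistic. DESeq2 1.42.0, limma 3.58.1, other scalings and filters, summed copies and leaving out each library were alternatives. Counts simulated from the additive model were also run through the edgeR test. Such counts follow that model, so they cannot show how well it fits these libraries. Single libraries were compared by the ratio of CPM, counts scaled to the library total, with exact conditional binomial intervals, which cover counting error only, and counted as different from 2-fold on log2(FPKM + 1). That pseudocount understates the change of low genes. A library at 0 was set to a floor of 3 counts. Coding sequences come from GENCODE M21 (GRCm38), aligned with MAFFT 7.526, and 34267 of the 34745 gene identifiers were found there.

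The members and the gene lists were chosen with earlier results of these data known. Named from each list were up to 4 genes with the largest mean difference over the matched pairs and any called gene where 5 or fewer were called, and the 3 genes most like each member. Some genes that this rule picks are not reported here.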

Additional observations from a re-analysis of the deposited data

Results flagged for a closer look

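For Cyp4a10 and Cyp4a14 the precancerous libraries moved opposite ways in the sexes. The log2 CPM ratio of precancerous over normal liver was 0.2 in males and -1.2 in females for Cyp4a10, and 0.49 in males and -2.33 in females for Cyp4a14. For 3 genes the sex difference changed sign between tissues. The log2 ratio of male over female was -3.06 in normal liver, -1.66 in precancerous liver and 1.99 in tumour for Cyp4a10. For Cyp4a14 it was -5.33, -2.52 and 0.49, and for Cyp4a31 it was -1.78, -1.96 and 0.53, in the same order. Each value compares a single pair of libraries, and none of these differences between sexes or tissues was tested.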

How the results depend on the processing

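Each group holds 1 library, so counting precision is known and the spread between mice is not, and sex, age and library set cannot be told apart. The number of members called moved with the model. With limma on log2(FPKM + 1) and on log2(FPKM + 0.1), 1 member was called for tumour against precancerous and 1 for tumour against normal liver. With no filter 4 were called for tumour against normal liver. Without the sex term, which acts as the replicate block, the count was 0 in both, and it changed no other call. Over the fits that each left out 1 library the count ran from 0 to 4 for tumour against precancerous, 0 to 1 for precancerous against normal, 1 to 4 for tumour against normal and 2 to 6 for male against female. The setting with near-identical copies summed gives no such count. Cyp4a12a for tumour against precancerous liver, at -0.01, turned to 0.064 with total counts, 0.91 with DESeq2, 0.35 with limma on log2(FPKM + 0.1) and 0.068 at FPKM of at least 5. Cyp4a32 for precancerous against normal liver, at 0.00126, turned to -0.0093 with DESeq2, -0.045 and -0.056 with limma and -0.012 with no filter. Leaving out 1 library turned signs within these ranges. For precancerous against normal they were -1.82 to 1.30 (Cyp4a10), -2.51 to 0.996 (Cyp4a12a), -1.70 to 4.73 (Cyp4a12b), -2.85 to 1.29 (Cyp4a14), -0.96 to 0.99 (Cyp4a31) and -0.52 to 0.39 (Cyp4a32). For tumour against normal they were -2.70 to 0.87 (Cyp4a12a) and -4.62 to 1.86 (Cyp4a12b). For tumour against precancerous they were -0.44 to 3.10 (Cyp4a12a) and -5.96 to 0.32 (Cyp4a12b), and for male against female -2.47 to 0.0031 (Cyp4a10). The highest values of Cyp4a12a and Cyp4a12b in these ranges came from fits without a male library. The tissue of that library was then the female library alone. Over normal, precancerous and tumour tissue, females had 4, 3 and 12 counts of Cyp4a12a and 0, 3 and 1 of Cyp4a12b. The cause of the turned signs was not tested. Of the other member fold changes 166 kept direction and side of the threshold over the settings that use all libraries, 10 lost a call and 6 gained one. Counts over all genes moved by more than 1.5 times for precancerous against normal (29, against 0 to 368), for tumour against precancerous (2965, against 113 without the sex term and 1783 at FPKM of at least 5), tumour against normal (3819, against 690 and 2262) and male against female (4270, against 2314 at FPKM of at least 5). Leaving out 1 library moved these counts, in the same order, to 0 to 219, 458 to 2933, 1923 to 3241 and 762 to 3732. With total counts 2737 genes were higher and 1602 lower in males, against 2187 and 2083 with TMM. By Pearson correlation in place of the root mean square difference, the 3 closest genes differed in 2 or more places for 5 of the 6 members and in 1 place for Cyp4a31.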
